A study of Mus musculus with 16 samples.

Results

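The selectin ligand system of neutrophils was examined through 8 genes: Selplg, Cd44 and Glg1, which encode proteins that carry selectin ligands, the glycosyltransferase genes Fut7, Fut4, St3gal4 and Gcnt1, and the sheddase gene Adam17. The 8 genes were taken by name from 49585 gene identifiers in the count tables, and each was found there. The RNA came from neutrophils sorted by flow cytometry from the bones of C57BL/6 mice aged 8 to 12 weeks. In the P2 line, Vav:cre-PHD2f/f animals (P2KO, 4 libraries) were set against animals labelled wild type (P2WT, 4 libraries). In the P2H2 line, Vav:cre-PHD2/HIF2ff/ff animals (P2H2KO, 4 libraries) had their own wild-type group (P2H2WT, 4 libraries). The library titles end in m or f, a suffix that the labels do not explain. P2KO and P2H2WT each had 3 m and 1 f, and P2WT and P2H2KO each had 2 m and 2 f. PHD2, encoded by Egln1, is an oxygen sensor that marks HIF proteins for destruction, and HIF2α is encoded by Epas1. The Vav promoter drives Cre in blood-forming cells in general, so the deletion is not limited to neutrophils, and whether the wild-type animals carried Cre or floxed alleles was not given. The labels do not say how many animals stand behind a library, so the p values judge differences against the variation between these libraries.

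Neutrophils leave the blood by first tethering to and rolling on the vessel wall, which is mediated by selectins. P-selectin and E-selectin are displayed by activated endothelium (P-selectin also by platelets). Their ligands are sugars rather than bare proteins: PSGL-1 (Selplg), CD44 and ESL-1 (Glg1) serve as scaffolds on mouse neutrophils. Gcnt1 builds the core 2 branch on O-glycans, St3gal4 adds sialic acid, and Fut7 and Fut4 add the fucose that completes sialyl Lewis x. ADAM17 cuts adhesion molecules and other surface proteins from the membrane.

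Since PHD2 and HIF2α act through HIF binding sites, the letters upstream of the gene starts are shown first for 3 members that differ in the HIF core motif. The motifs searched were ACGTG and GCGTG on both strands (CACGT and CACGC on the reverse), which do not overlap each other in these sequences, and they are given in capitals. Each line is the 100 bases just upstream of a RefSeq gene start, 5′ to 3′ on the gene's strand, from the RefSeq table of build GRCm38.p6: chr2:102901666-102901765 on the minus strand for Cd44, chr8:111259211-111259310 on the minus strand for Glg1 and chr2:25423142-25423241 on the plus strand for Fut7.
Cd44: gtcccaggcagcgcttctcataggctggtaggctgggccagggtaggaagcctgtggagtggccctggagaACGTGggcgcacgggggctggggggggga
Glg1: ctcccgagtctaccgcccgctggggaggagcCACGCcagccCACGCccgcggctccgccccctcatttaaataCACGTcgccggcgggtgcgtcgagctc
Fut7: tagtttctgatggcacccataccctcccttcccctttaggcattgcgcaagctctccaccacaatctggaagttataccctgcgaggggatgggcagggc

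Cd44 held 1 ACGTG, 29 to 25 bases upstream of its start, and Glg1 held 1 ACGTG, 27 to 23 bases upstream, with 3 GCGTG in its 250 upstream bases. St3gal4, Gcnt1 and Adam17 held GCGTG only, and neither motif was found for Fut7 and Fut4. In all, 7 of the 8 genes (all but Selplg) matched 10 promoter entries, and 6 of the 10 entries, from 5 genes, held either motif in 250 bases. Among 32851 promoter windows of that length in the table, 16.6% held ACGTG, 28.2% held GCGTG and 38.6% held either. A match describes the letters only.

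Sequencing depth ran from 23450746 to 28601284 counts per library, so that the members with the fewest counts, Fut7 and Fut4, still had at least 307 and 425 counts in every library. Levels below are CPM (read counts scaled to a common library size), with library sizes adjusted by the TMM method. The targeted gene Egln1 lay at 43.2 to 58.8 CPM over all 16 libraries with overlapping groups. Epas1 lay at 3.42 to 8.38 CPM in P2H2KO, 2.55 to 4.97 CPM in P2H2WT, 6.75 to 24.4 CPM in P2KO and 8.69 to 11.3 CPM in P2WT. The wild-type groups thus differed in Epas1 without overlap, 2.80-fold higher in P2WT (adjusted p = 0.00764 in edgeR's quasi-likelihood test). These gene totals include exons that a conditional allele would leave in place, so they do not check the deletion. All 12 mature neutrophil markers were detected, and their summed level was 16036 to 44316 CPM. All 9 matched erythroid markers were detected as well, at a summed 14481 to 29265 CPM, and so were all markers of the monocyte, lymphoid, platelet, endothelial and stromal lists. In a bulk library, fewer cells of a type and less RNA per cell cannot be told apart.

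All 8 members were expressed in every library, the scaffolds most. On a per-length scale (CPM per kilobase of exon, median of 16 libraries), Selplg stood at 83.1 and Cd44 at 69.3. Glg1 followed at 33.7, St3gal4 at 24.6, Gcnt1 at 19.3 and Adam17 at 13.1, and the fucosyltransferases were lowest, with Fut7 at 6.59 and Fut4 at 5.11. The library ranges of Selplg and Cd44, Gcnt1 and Adam17, and Fut7 and Fut4 overlapped, so the order within these pairs does not exceed the spread. The other neighbours in this order, namely Cd44 and Glg1, Glg1 and St3gal4, St3gal4 and Gcnt1, and Adam17 and Fut7, did not overlap. Fut9, a fucosyltransferase that can also build Lewis x, had 0 counts in all libraries.

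**Figure D1:**
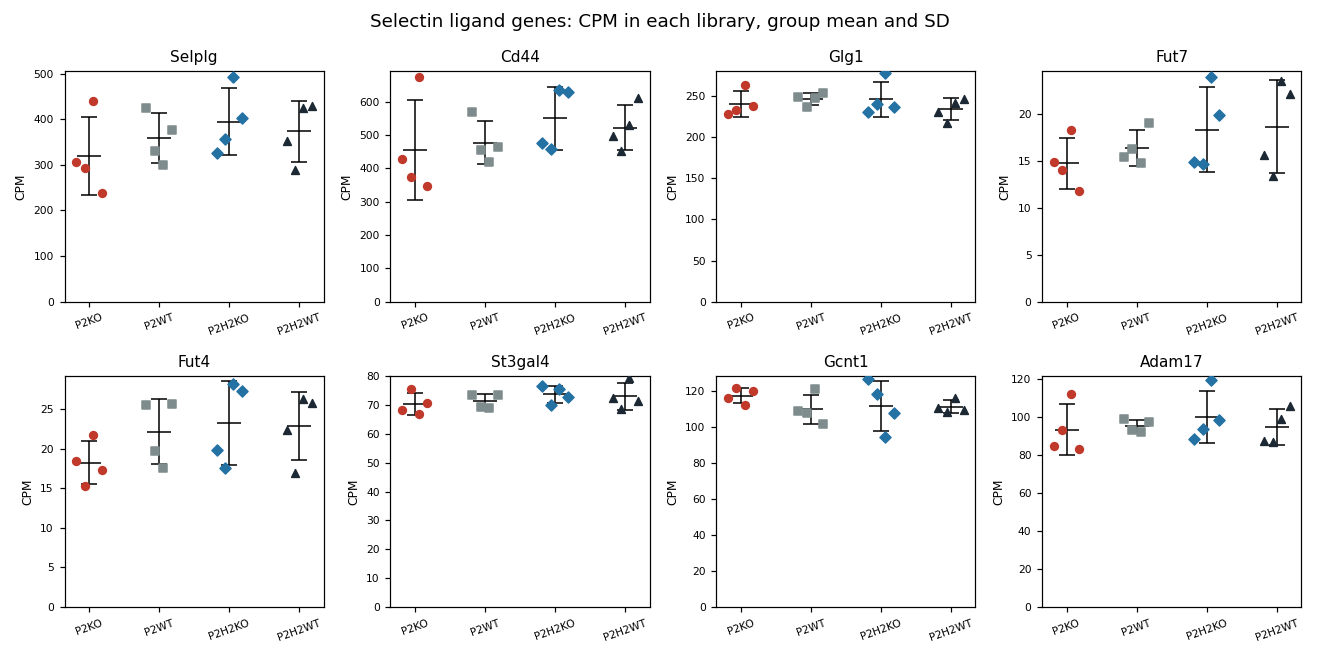
CPM (y axis, from 0) of the 8 genes in each of the 4 groups (x axis), with 1 point per library and the group mean with its SD in black. The 4 groups overlap in every panel, and Glg1, St3gal4 and Gcnt1 spread less around their means than Selplg, Cd44, Fut7 and Fut4.

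Among the scaffolds, Selplg (ENSMUSG00000048163; 5:113818536-113832644, minus strand) is the main P-selectin ligand. It measured 306, 293, 441 and 239 CPM in P2KO replicates 1, 5, 6 and 9, and 425, 331, 299.8 and 377 CPM in P2WT replicates 10, 3, 4 and 7. In the other line it measured 325, 357, 493 and 404 CPM in P2H2KO replicates 11, 12, 15 and 17, and 353, 288, 425 and 429 CPM in P2H2WT replicates 13, 14, 16 and 18. P2KO held both the lowest library of the series for this gene (replicate 9) and 1 of the higher ones (replicate 6), and the groups overlapped in both lines. The group means were 320 ± 85.7 CPM in P2KO, 358 ± 54.6 in P2WT, 395 ± 73.2 in P2H2KO and 374 ± 66.9 in P2H2WT (SD, n = 4 each).

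Cd44 (ENSMUSG00000005087; 2:102811141-102901665, minus strand) encodes the hyaluronan receptor that also carries E-selectin ligands. Its P2KO libraries, in the same order of replicates, had 427, 375, 674 and 347 CPM, and its P2WT libraries 569, 455, 421 and 463 CPM. The P2H2 values were 476, 459, 634 and 631 CPM in P2H2KO and 498, 451, 530 and 610 CPM in P2H2WT. P2KO replicate 6 was the highest and P2KO replicate 9 the lowest of all 16 libraries, so this group spanned the whole range of the series. Glg1 (ENSMUSG00000003316; 8:111154421-111259216, minus strand), whose product ESL-1 is an E-selectin ligand and a Golgi protein, was much steadier, at 216 to 277 CPM over all libraries. Its coefficient of variation over the 16 libraries was 6.05%, against 19.2% for Selplg and 19.4% for Cd44.

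The fucosyltransferases were the least abundant members. Fut7 (ENSMUSG00000036587; 2:25423267-25426374, plus strand), the main enzyme of selectin ligand fucosylation in leukocytes, had 14.9, 14.1, 18.3 and 11.8 CPM in P2KO and 15.4, 16.3, 14.8 and 19.1 CPM in P2WT. It had 14.9, 14.7, 24.1 and 19.97 CPM in P2H2KO and 15.6, 13.4, 23.6 and 22.2 CPM in P2H2WT. Both groups of the P2H2 line thus held 2 libraries at 13.4 to 15.6 CPM and 2 at 19.97 to 24.1 CPM. Fut4 (ENSMUSG00000049307; 9:14748320-14752393, minus strand), which adds to the same step, had 18.5, 15.3, 21.8 and 17.3 CPM in P2KO and 25.6, 19.7, 17.6 and 25.6 CPM in P2WT. Its P2H2KO libraries had 19.9, 17.6, 28.2 and 27.2 CPM and its P2H2WT libraries 22.4, 16.9, 26.3 and 25.8 CPM. The highest P2KO library for Fut4 lay between the lower and the upper pair of P2WT libraries. The upper pair had the title suffix f and the lower pair m, as in P2H2KO. In P2KO, the f library (replicate 9, 17.3 CPM) lay within the range of the m libraries.

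The sialyltransferase gene St3gal4 (ENSMUSG00000032038; 9:35046576-35119268, minus strand) was the steadiest member, at 67.0 to 79.4 CPM over 16 libraries with a coefficient of variation of 4.81%. Gcnt1 (ENSMUSG00000038843; 19:17326141-17372844, minus strand) ranged from 94.5 to 127 CPM, with both extremes in P2H2KO. Adam17 (ENSMUSG00000052593; 12:21323509-21373632, minus strand) ranged from 83.5 to 119.8 CPM, with P2H2KO replicate 15 highest and P2KO replicate 9 lowest. Exons of St3gal4 share 412 bases with the opposite-strand gene 4930581F22Rik, and those of Adam17 share 311 bases with Iah1. Whether counting used strand was not given in the sources used here, so reads there cannot be assigned to 1 gene with certainty.

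Deletion of PHD2 was compared with its controls first. No member passed the test between P2KO and P2WT: 0 of 8 had an adjusted p under 0.05 in edgeR's quasi-likelihood test (background over all genes tested 0.0437%), and DESeq2 also called 0. At an unadjusted p under 0.05 the count was 0 of 8 as well (background 3.5%), and 0 of 8 had groups that did not overlap (background 2.25%). The log2 fold change of Selplg was -0.15 (SE 0.19), that of Cd44 -0.05 (SE 0.21) and that of Glg1 -0.02 (SE 0.07). Fut4 had the smallest p, at -0.27 on the log2 scale (SE 0.15) with an unadjusted p of 0.11. Gcnt1 was the single member with a positive value, 0.11 (SE 0.07). The median over the 8 members was -0.04, against 0.02 over all 13734 genes tested.

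These data bound the size of a difference rather than show that there was none. Over the 8 members, the 95% confidence intervals of the P2KO to P2WT ratio reached from 0.652-fold, for Fut4, to 1.34-fold, for Cd44. For St3gal4 the interval was 0.906-fold to 1.09-fold, and for Glg1 it was 0.879-fold to 1.10-fold. The monocyte and macrophage markers summed to 2438 to 3025 CPM in P2KO and 3144 to 3841 CPM in P2WT, without overlap. This difference was not tested. In the P2H2 line the same sums overlapped, at 2685 to 4799 CPM in P2H2KO and 2870 to 4566 CPM in P2H2WT. With late granule and monocyte marker scores as covariates, the log2 values were 0.15 for Selplg, 0.10 for Fut7 and 0.10 for Fut4, opposite in sign to those without them, and none was called. Where a marker level separates the groups, such a fit cannot tell it apart from genotype.

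Joint deletion of PHD2 and HIF2α was compared in the same way. Again 0 of 8 members had an adjusted p under 0.05 in edgeR's quasi-likelihood test (background 0.0744%), 0 had an unadjusted p under 0.05 (background 2.63%), 0 were called by DESeq2 and 0 had groups without overlap (background 1.71%). The log2 fold changes between P2H2KO and P2H2WT lay between -0.02 for Fut7 and 0.08 for Adam17, with a median of 0.05 against 0.00112 over all 13435 genes tested. Selplg had 0.08 (SE 0.16), Cd44 0.07 (SE 0.14) and Fut4 0.02 (SE 0.18). The intervals of the ratio reached from 0.702-fold to 1.38-fold, and both of these bounds belonged to Fut7.

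The difference of the 2 effects sets the effect of PHD2 deletion against that of joint deletion, and it was tested as an interaction over all 16 libraries. No group lacked HIF2α alone, and each effect came from its own line. An effect of HIF2α deletion by itself, a line difference and a dependence of the PHD2 effect on HIF2α therefore cannot be told apart here. No member passed: 0 of 8 had an adjusted p under 0.05 in edgeR (background 0%), 0 an unadjusted p under 0.05 (background 1.51%), and DESeq2 called 0. Fut4 had the largest difference, -0.31 on the log2 scale (SE 0.26, unadjusted p = 0.249), followed by Selplg at -0.24 (SE 0.26). The intervals were wide for both, from -0.85 to 0.24 for Fut4 and from -0.80 to 0.32 for Selplg. St3gal4 had the narrowest, from -0.21 to 0.14.

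**Figure D2:**
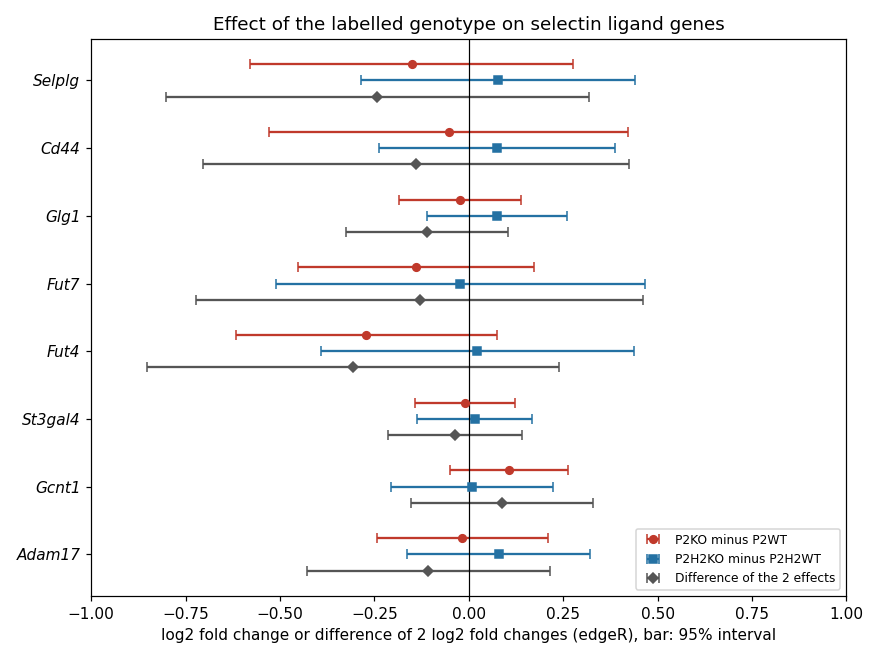
Log2 fold change (x axis) of each gene (y axis) in P2KO against P2WT and in P2H2KO against P2H2WT, and the difference of these values, with 95% confidence intervals derived from edgeR's F statistics. Each interval includes 0, and those of Glg1, St3gal4 and Gcnt1 are narrower than those of Selplg, Cd44, Fut7 and Fut4.

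The wild-type groups of the lines were compared as a gauge, since line and any unlabelled batch cannot be told apart. Here 0 of 8 members had an adjusted p under 0.05 in edgeR (background 1.22%) and 0 an unadjusted p under 0.05 (background 11.4%). DESeq2 called 0, and 0 had groups without overlap (background 7.81%). The log2 values of P2WT minus P2H2WT lay between -0.19 for Fut7 and 0.07 for Glg1.

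The libraries within a group differed more than the groups, and the members did so together. Correlations of log2 CPM between members were computed within each line (8 libraries, mixing both genotypes), with exact two-sided permutation tests over 40320 pairings and Benjamini-Hochberg adjustment over 56 relations, 28 pairs in each of the lines. Of these, 17 had an adjusted p under 0.05: 6 in the P2 line and 11 in the P2H2 line. The share of such pairs among other genes was not computed, so the count does not set these genes apart. Selplg and Cd44 were the closest pair in the P2 line, with Pearson's r 0.947 (exact permutation p = 2.5e-05, the smallest that these pairings can give, adjusted p = 0.00139), Spearman's rho 1.0 (exact p = 4.96e-05) and r 0.922 without the 2 libraries farthest from the median. Within the P2H2 line the same pair had r 0.861 (exact permutation p = 0.00734, adjusted p = 0.0294), rho 0.857 (exact p = 0.0107) and r 0.777 without those libraries.

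Scaffold and enzyme genes moved together as well. Selplg and Fut7 had r 0.946 in the P2H2 line (exact permutation p = 0.000422, adjusted p = 0.00787), rho 0.905 (exact p = 0.00456) and r 0.952 without the 2 farthest libraries. Within the P2 line they had r 0.830 (exact permutation p = 0.0115, adjusted p = 0.0379), rho 0.881 (exact p = 0.00724) and r 0.996 without them. Glg1 and Adam17 had r 0.945 in the P2H2 line (exact permutation p = 0.000223, adjusted p = 0.00625), rho 0.976 (exact p = 0.000397) and r 0.932 without the 2 farthest. In the P2 line, where they had r 0.831 (exact permutation p = 0.0094, adjusted p = 0.0329) and rho 0.714 (exact p = 0.0576), r was 0.530 without those libraries, so that the relation there rests in part on them. Selplg, Cd44, Glg1, Fut7, Fut4 and Adam17, a set named after the values were seen, had positive r in all 15 of their pairs in both lines, between 0.550 and 0.947 for P2 libraries and between 0.689 and 0.946 for P2H2 libraries. The count of called pairs depended on single libraries: without P2H2KO replicate 15 it was 7, and without P2H2WT replicate 14 it was 11.

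Gcnt1 and St3gal4 stood outside this pattern. Gcnt1 had a negative r in 7 of 7 pairs in the P2 line and in 6 of 7 in the P2H2 line. One of these was called, with Fut4 in the P2 line: r was -0.880 (exact permutation p = 0.00456, adjusted p = 0.0213), rho was -0.905 (exact p = 0.00456) and r was -0.807 without the 2 farthest libraries. The same pair had r -0.511 in the P2H2 line (exact permutation p = 0.208, adjusted p = 0.284), and whether the lines differ here was not tested. St3gal4 was in no called pair, with r between -0.319 and 0.0514 for P2 libraries and between 0.132 and 0.570 for P2H2 libraries. Without the 2 farthest libraries, these ranges were -0.882 to 0.126 and -0.153 to 0.259, so its values rest in part on those libraries. The same holds for Gcnt1 with Adam17 in the P2H2 line, where r went from -0.691 to 0.069.

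**Figure D3:**
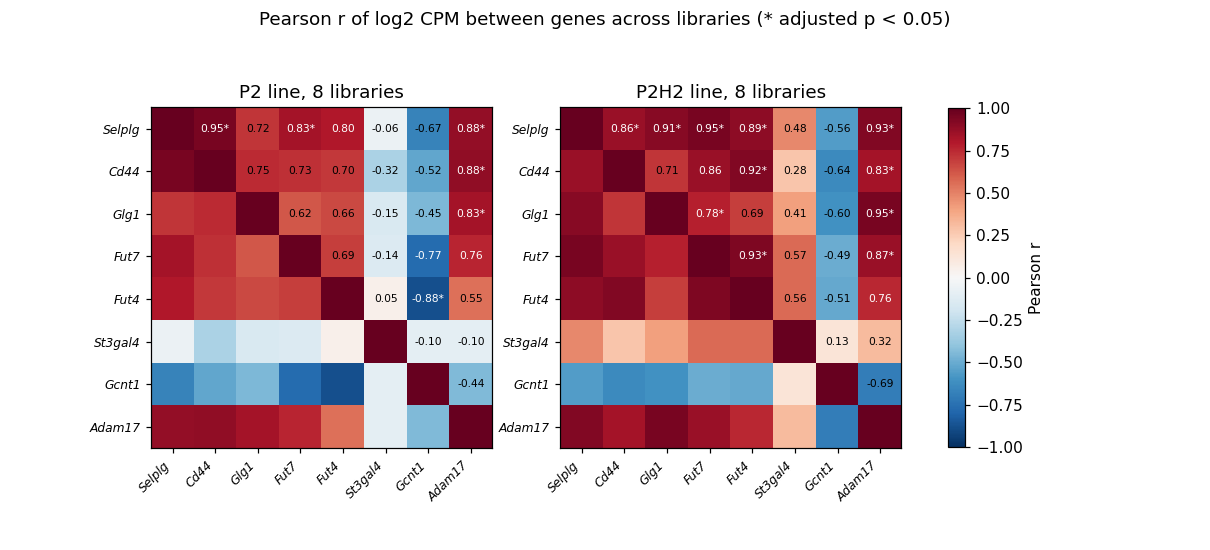
Pearson r of log2 CPM for each pair of the 8 genes (both axes) across the 8 libraries of the P2 line (left) and of the P2H2 line (right), in colour from -1 to 1, with a star where the adjusted exact permutation p is under 0.05. The stars mark 6 pairs on the left and 11 on the right, and the rows of Gcnt1 and St3gal4 differ from the others.

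Levels of other cell types' markers moved with these genes. The relations with 3 marker lists were chosen after the values had been seen, and 48 of them (8 members, 3 lists, 2 lines) were adjusted together. The summed erythroid marker level had a negative r with Selplg, Cd44, Glg1, Fut7, Fut4 and Adam17 in both lines. Selplg, Cd44, Glg1 and Adam17 had an adjusted exact permutation p under 0.05 in both. Fut7 did in the P2H2 line (adjusted exact permutation p = 0.022) but not in the P2 line (0.0506), and Fut4 missed it in both (0.0506 in P2 and 0.0505 in P2H2). For Cd44 in the P2 line r was -0.890 (exact permutation p = 0.0028, adjusted p = 0.0168) and rho -0.905 (exact p = 0.00456), with r -0.866 without the 2 farthest libraries. For Adam17 in the P2H2 line r was -0.958 (exact permutation p = 0.000446, adjusted p = 0.0069) and rho -0.905 (exact p = 0.00456), with r -0.882 without the 2 farthest. For P2 libraries the relation of the erythroid sum to Glg1 fell from r -0.804 to -0.394 without the 2 farthest libraries, and so rests on them. Gcnt1 had r 0.712 in the P2 line and 0.755 in the P2H2 line (exact permutation p = 0.0469 and 0.0438, adjusted p = 0.0865 and 0.0842), with rho 0.833 and 0.571 (exact p = 0.0154 and 0.151) and r 0.942 and 0.780 without the 2 farthest.

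Markers of mature neutrophils had a positive relation to Cd44 in both lines. For their sum and Cd44 r was 0.965 in the P2 line (exact permutation p = 0.000719, adjusted p = 0.0069, rho 0.833 with exact p = 0.0154) and 0.916 in the P2H2 line (exact permutation p = 0.00335, adjusted p = 0.0179, rho 0.810 with exact p = 0.0218). Without the 2 farthest libraries these were 0.842 and 0.892. Selplg was related to that sum in the P2 line (r 0.871, exact permutation p = 0.00548, adjusted p = 0.022, rho 0.833 with exact p = 0.0154, r 0.621 without the 2 farthest) but was not called in the P2H2 line (r 0.608, exact permutation p = 0.115, adjusted p = 0.159). Glg1, Fut7, Fut4, Adam17, St3gal4 and Gcnt1 were called with it in neither line, and for Glg1 in the P2 line r went from 0.609 to -0.037 without the 2 farthest libraries. The monocyte and macrophage sum was related to Selplg in the P2H2 line, with r 0.930 (exact permutation p = 0.000918, adjusted p = 0.00734), rho 0.929 (exact p = 0.00223) and r 0.898 without the 2 farthest. In the P2 line that pair had r 0.667 (exact permutation p = 0.0654, adjusted p = 0.108), rho 0.595 (exact p = 0.132) and r 0.399 without the 2 farthest. Glg1, Fut7 and Adam17 were also called with the monocyte sum in the P2H2 line and no member was in the P2 line, and whether the lines differ was not tested. CPM values are shares of a library, and the part of any of these markers in the relations between members was not tested.

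**Figure D4:**
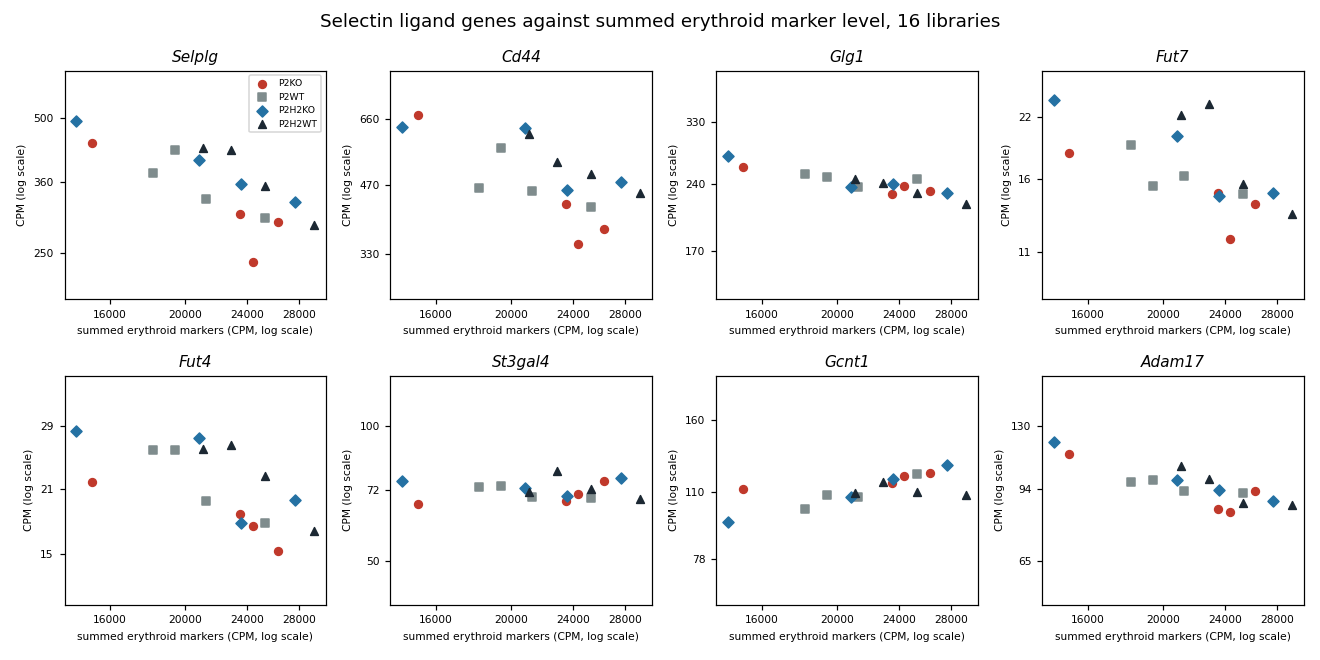
CPM of each gene (y axis, log2 scale) against the summed CPM of 9 erythroid markers (x axis, log2 scale) in 16 libraries, coloured by group. Selplg, Cd44, Glg1, Fut7, Fut4 and Adam17 fall from left to right, Gcnt1 rises, and St3gal4 is flat.

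Among 9816 genes with a mean of at least 5 CPM, those most like each member across the 16 libraries, after group means were subtracted, were as follows. Vim (r 0.984), the gene of the filament protein vimentin, was closest to Selplg, and Rab7 (r 0.997), a GTPase of late endosomes, was closest to Cd44. Uvrag (r 0.931) was closest to Glg1, Ggh (r 0.981) to Fut7, Sntb1 (r 0.986) to Fut4 and Arhgef7 (r 0.968) to Adam17. Akt1s1 (r 0.909) was closest to Gcnt1, and St3gal4 had the weakest best match, Gtf3a (r 0.849). The second in order were Tbkbp1 (r 0.983) for Selplg, Cmtm6 (r 0.996) for Cd44, Atf7 (r 0.930) for Glg1, Mvd (r 0.977) for Fut7, Ncstn (r 0.964) for Fut4, Rnf215 (r 0.789) for St3gal4, Bclaf1 (r 0.899) for Gcnt1 and Ifnar1 (r 0.963) for Adam17. For every member, the highest r with another member was lower than that with the second gene in order. The other members are far fewer than the 9816 genes searched, so this order does not show that members are less alike than other genes. The highest r with another member was 0.911 between Selplg and Cd44, and with Selplg it was 0.855 for Fut7, 0.829 for Fut4 and 0.901 for Adam17. For Glg1 it was 0.900 (with Adam17), for St3gal4 0.314 (with Fut4) and for Gcnt1 0.0891 (with St3gal4). The libraries within a group differed in depth and in cell type marker levels, so these values describe likeness and no more.

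The wider pathway list held 85 genes in 8 roles, the members among them. In P2KO against P2WT, 80 were tested and 0 were called by edgeR at an adjusted p under 0.05, with 1 higher and 1 lower at an unadjusted p under 0.05. The median log2 fold change of the list was -0.02. In P2H2KO against P2H2WT, 78 were tested and 0 were called, with 2 higher and 1 lower at the unadjusted threshold, and the median was 0.02. In the interaction 80 were tested and 0 called, with 1 lower at the unadjusted threshold. At the unadjusted threshold, the shares of all genes tested were 1.5% higher and 2% lower for P2, 1.62% higher and 1.01% lower for P2H2, and 0.788% higher and 0.717% lower for the interaction.

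By role, none of the genes of fucosylation, sialylation, core O-glycan synthesis or sulfation passed even the unadjusted threshold in either deletion. St3gal6, another sialyltransferase of selectin ligands, had 61.8 ± 11.6 CPM in P2KO and 55.6 ± 9.85 CPM in P2WT (SD, n = 4 each), a log2 fold change of 0.16 (SE 0.16). Slc35c1, the transporter that brings GDP-fucose into the Golgi, had log2 values of -0.10 (SE 0.12) in the P2 line and 0.09 (SE 0.16) in the P2H2 line. C1galt1, which makes core 1 O-glycans, had 0.05 (SE 0.08) and -0.06 (SE 0.11). B4galt1, which extends lactosamine chains, had -0.04 (SE 0.09) and 0.01 (SE 0.10). Of the tyrosine sulfotransferases that complete the P-selectin site of PSGL-1, Tpst2 had -0.10 (SE 0.13) and 0.07 (SE 0.11), and Tpst1 had -0.02 (SE 0.10) and -0.15 (SE 0.08). The sheddase Adam10 had 0.06 (SE 0.09) and -0.03 (SE 0.08), and Rhbdf2, a partner that ADAM17 needs to mature, had 0.07 (SE 0.20) and 0.14 (SE 0.16). The mucin-like scaffold Spn (CD43) had -0.11 (SE 0.09) and 0.10 (SE 0.12).

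Lgals3bp, whose product binds galectins and has been described as a glycoprotein ligand of selectins, was the gene below the unadjusted threshold in both deletions. Its mean was 74.8 ± 7.84 CPM in P2KO and 107 ± 21.7 CPM in P2WT (SD, n = 4 each), without overlap of the libraries, which is -0.51 on the log2 scale (SE 0.14, unadjusted p = 0.00576). The P2H2 value was -0.40 (SE 0.17, unadjusted p = 0.044), with overlapping groups. With late granule and monocyte marker scores as covariates, the P2 value was -0.086 in place of -0.51. As the summed monocyte markers did not overlap between P2KO and P2WT, this fit cannot tell their level apart from genotype. Neither the P2 nor the P2H2 value passed after adjustment over all genes in edgeR, and the difference between the lines was -0.12 (SE 0.24, unadjusted p = 0.612). Lgals3bp also followed the title suffix in P2KO, P2WT and P2H2KO, where every f library lay above every m library, but not in P2H2WT. In P2WT the f libraries had 134 and 116 CPM and the m libraries 88.1 and 91.8 CPM. Suffix f was on 2 P2WT libraries and 1 P2KO library.

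P-selectin RNA was scarce, and its lowest group was P2H2WT. Selp measured 3.24, 3.14, 5.99 and 6.40 CPM in P2H2KO and 1.72, 1.59, 2.32 and 1.66 CPM in P2H2WT, so that 4 of 4 P2H2KO libraries lay above all controls. The log2 fold change was 1.36 (SE 0.27), 2.57-fold with a 95% confidence interval of 1.67-fold to 3.95-fold. The unadjusted p was 0.000718 and the adjusted p 0.402 in edgeR's quasi-likelihood test, so it was not called there. DESeq2 gave an adjusted p of 0.00307. With the title suffix m or f as a covariate, edgeR gave an adjusted p of 0.0478 at a log2 value of 1.12. Selp also followed this suffix: in each of the 4 groups, every f library lay above every m library. Suffix f was on 2 P2H2KO libraries and 1 P2H2WT library. Within the P2 line, Selp measured 3.35, 3.21, 4.50 and 8.06 CPM in P2KO and 5.73, 2.93, 2.59 and 5.09 CPM in P2WT, which overlapped (log2 fold change 0.23, SE 0.36). The difference of the effects was -1.14 (SE 0.49, unadjusted p = 0.0326), which did not pass after adjustment over all genes. Between the wild-type groups, Selp was 1.16 higher in P2WT on the log2 scale (SE 0.27, 4 of 4 libraries above all P2H2WT libraries, unadjusted p = 0.00178, adjusted p = 0.0922 in edgeR). That comparison was called without a filter (adjusted p = 0.0376), with DESeq2 (0.00501), with the suffix covariate (0.0222) and with the marker scores (0.0185). The group means were 4.78 ± 2.26 CPM in P2KO, 4.08 ± 1.56 in P2WT, 4.69 ± 1.74 in P2H2KO and 1.82 ± 0.337 in P2H2WT (SD, n = 4 each), so P2H2WT stood apart from the other 3 groups.

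The megakaryocyte and platelet markers, all 10 of which were detected, summed to 120.4 to 165 CPM in P2H2KO and 104 to 144 CPM in P2H2WT. They were highest in P2KO replicate 9, at 327 CPM, the library in which Selp was also highest. Endothelial markers, again 10 of 10 detected, summed to 68.7 to 81.2 CPM in P2H2KO and 67.1 to 78.2 CPM in P2H2WT. The part of either cell type in the Selp values was not tested. Timp3, an inhibitor of ADAM17, was also above all controls in the P2H2KO libraries, at 3.47 ± 1.03 CPM against 1.79 ± 0.461 CPM (SD, n = 4 each), or 0.95 on the log2 scale (SE 0.26, unadjusted p = 0.00467). It was not called after adjustment. Within the P2 line the unadjusted threshold was passed upward by Podxl, a sialomucin of endothelium and blood-forming progenitors, with 2.01 ± 1.08 CPM in P2KO and 1.04 ± 0.233 CPM in P2WT (SD, n = 4 each, log2 fold change 0.96, SE 0.35, unadjusted p = 0.0237), and its groups overlapped. The Podxl value was 0.52 without P2KO replicate 9 and 0.024 with the marker scores as covariates. Here too, the fit with marker scores cannot tell the monocyte marker level apart from genotype.

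Between the wild-type groups, 4 of 79 tested genes of the wider list were called higher in P2WT and 0 lower by edgeR, where the background was 1.09% higher and 0.132% lower. At an unadjusted p under 0.05, 7 were higher and 2 lower (background 7.71% and 3.64%). The 4 called were Sele (log2 difference 2.95, SE 0.40, adjusted p = 0.0097), which encodes E-selectin, Emcn (1.801, SE 0.20, adjusted p = 0.00327), an endothelial sialomucin, Timp3 (2.20, SE 0.33, adjusted p = 0.0133) and Chst2 (1.24, SE 0.20, adjusted p = 0.0202), a sulfotransferase that acts on sugars. Sele measured 1.87, 1.16, 1.82 and 1.86 CPM in P2WT and 0.143, 0.319, 0.348 and 0.0404 CPM in P2H2WT, where its counts were 1 to 9 per library. All 4 genes are at low levels, and none is a member. The endothelial marker list, which includes Emcn, summed to 94.9 to 113 CPM in P2WT and 67.1 to 78.2 CPM in P2H2WT, and the bone and marrow stroma list to 500 to 1379 CPM and 185 to 326 CPM. Neither pair of ranges overlapped, and the part of these cells in the 4 genes was not tested. In a fit of all 16 libraries with 1 shared spread, 0 of the wider list were called, at adjusted p values of 0.0738 for Sele and Timp3, 0.102 for Emcn and 0.153 for Chst2.

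**Figure D5:**
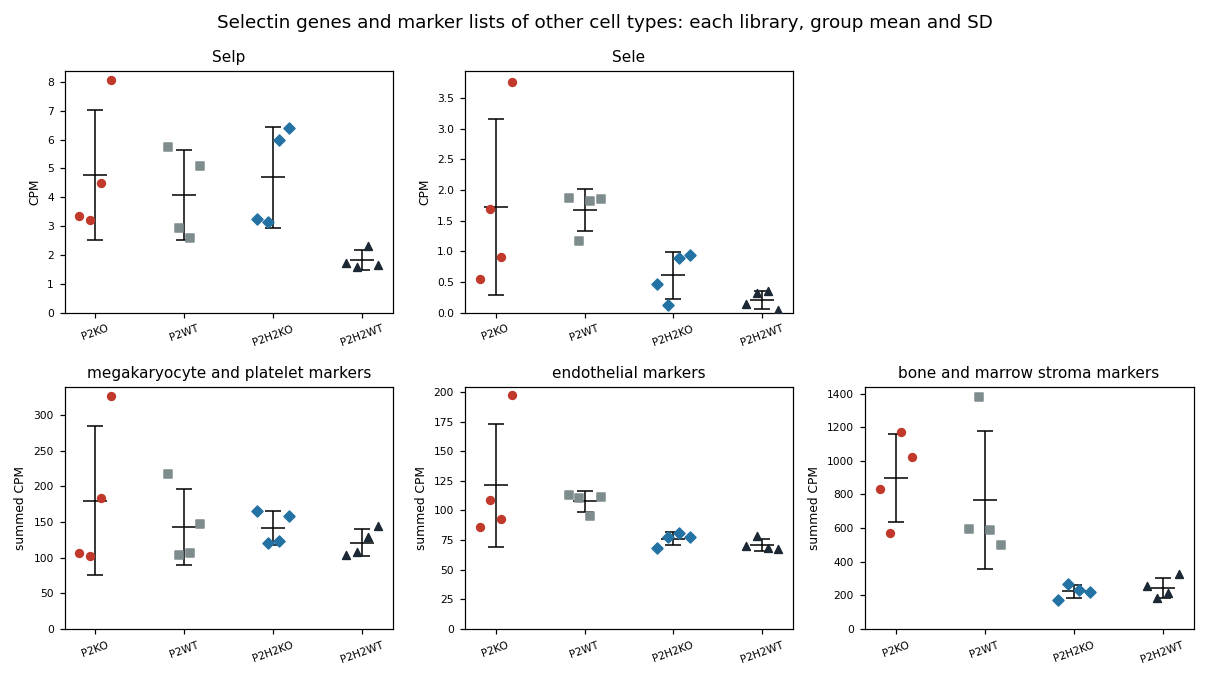
Upper row: CPM (y axis, from 0) of Selp and Sele in each group, with 1 point per library and the group mean with its SD. Lower row: summed CPM of platelet, endothelial and stroma markers in the same libraries, where the endothelial and stroma sums of the P2H2 line lie below those of the P2 line, as Sele does in the wild-type groups.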

How the data were processed

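The authors deposited 2 tables of raw read counts, 1 per line, each with 8 libraries and the same 49585 Ensembl identifiers, per the file headers. HTSeq and mm10 are named in the submitters' processing notes. The aligner, annotation release and strand setting are not given in the sources used here. Symbols and coordinates came from GENCODE M21 (GRCm38), which matched 49326 identifiers. The 259 unmatched held 0.00714% of counts.

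The 8 members and the gene lists were chosen with earlier results of these data known. Counts were filtered with filterByExpr, scaled by TMM and tested with edgeR 4.0.16 (estimateDisp, robust glmQLFit, glmQLFTest, two-sided). The Benjamini-Hochberg adjustment covered every gene in a fit, and calls used 0.05. DESeq2 1.42.0 was an alternative. Each line was fitted on its own 8 libraries, and the interaction on 16. Correlations used log2 CPM with a prior count of 2. Besides the members, genes named were a written list of pathway genes (1 of them is not reported here), the targeted genes, other listed genes past an unadjusted p of 0.05 within a line or an adjusted p of 0.05 in any comparison (up to 3 per role), and the 2 genes most like each member. The procedure was tested on simulated data. Confidence intervals cover the spread between libraries.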

Additional observations from a re-analysis of the deposited data

Results flagged for a closer look

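Within a group of 4 libraries, a library was singled out when its gap to the nearest other, divided by the range of the group, exceeded 0.829 (Dixon's test at 95%). Chance marks about 1 in 20 groups, and 12 of 104 gene and group combinations were marked, none of them for a member. P2KO replicate 9 stood above its group for Podxl (3.61 CPM), C1galt1 (211 CPM), Tpst1 (14.2 CPM) and Chst2 (4.34 CPM), and it also had the highest endothelial (198 CPM) and platelet (327 CPM) marker sums of the series. P2KO replicate 6 stood above its group for Rhbdf2 (80.8 CPM) and below it for Adam10 (422 CPM). In P2WT, replicate 10 was high for Rhbdf2 (66.8 CPM), replicate 3 low for Sele (1.16 CPM) and replicate 4 low for Tpst1 (10.994 CPM). In the P2H2 line, P2H2WT replicate 16 was high for Selp (2.32 CPM) and Timp3 (2.48 CPM), and P2H2KO replicate 12 was low for Chst2 (0.685 CPM).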

How the results depend on the processing

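No paired analysis was made because the labels give no pairing between libraries of the groups compared. The member values were recomputed under 8 alternatives per comparison (7 for the interaction) and without each library in turn. No member was called in any of the 568 values, with a smallest adjusted p of 0.207, and 507 kept their sign. The other 61 changed sign, some of them to a value as large as the first (Selplg in P2, -0.15 to 0.15) or larger (Fut7 in P2H2, -0.022 to 0.17). The cause was not tested.

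With late granule and monocyte scores as covariates, the log2 values of P2KO minus P2WT were 0.15 for Selplg, 0.10 for Fut7, 0.10 for Fut4, 0.11 for St3gal4, -0.016 for Gcnt1, 0.011 for Adam17, -0.68 for Sele and -0.48 for Chst2. Those of P2H2KO minus P2H2WT were 0.17 for Fut7 and -0.025 for Gcnt1, those of the interaction 0.095 for Fut7 and 0.052 for Lgals3bp, and those of P2WT minus P2H2WT 0.086 for Selplg, 0.013 for Cd44 and 0.085 for Fut4. With the title suffix as a covariate, St3gal4 was 0.0051 for P2. For P2H2, Selplg was -0.013, Cd44 -0.0071, Fut4 -0.11 and St3gal4 -0.0024. In the interaction Fut7 was 0.0095, Lgals3bp 0.068, Timp3 0.032 and Chst2 0.0027, and between wild types Adam17 was -0.019. Without a filter, Gcnt1 was -0.0035 in the P2H2 line.

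Leaving out 1 library at a time gave some ranges that crossed 0. For P2 they were -0.31 to 0.053 for Cd44 (lowest without P2KO replicate 6), -0.12 to 0.030 for Adam17, -0.044 to 0.014 for St3gal4, -0.14 to 0.45 for Selp, -0.66 to 0.35 for Sele, -0.33 to 0.42 for Chst2 and -0.081 to 0.998 for Timp3. For P2H2 they were -0.044 to 0.16 for Selplg, -0.18 to 0.11 for Fut7, -0.098 to 0.14 for Fut4, -0.016 to 0.060 for St3gal4, -0.058 to 0.083 for Gcnt1 and -0.015 to 0.13 for Adam17. In the interaction they were -0.26 to 0.028 for Fut7, -0.33 to 0.49 for Emcn, -0.26 to 0.00089 for Lgals3bp, -0.089 to 0.75 for Podxl and -1.05 to 0.030 for Timp3. Between wild types they were -0.17 to 0.0084 for Selplg, -0.17 to 0.044 for Fut4, -0.066 to 0.0076 for St3gal4, -0.076 to 0.011 for Gcnt1, -0.037 to 0.053 for Adam17 and -0.0020 to 0.25 for Lgals3bp. Other P2 ranges stayed below 0: Selplg (-0.35 to -0.039), Glg1 (-0.069 to -0.0014), Fut7 (-0.26 to -0.050) and Fut4 (-0.37 to -0.19), each lowest without P2KO replicate 6. That of Gcnt1 (0.067 to 0.16) stayed above 0. Without P2KO replicate 6, 840 genes were higher and 862 lower at an unadjusted edgeR p under 0.05, against 206 and 275 with it. The P2 values thus depend on this library.

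Of the wider list in the P2H2 line, 1 gene was called with DESeq2 and with the suffix covariate (Selp) and 1 with the marker scores (Papss2, named after its value was seen, adjusted p = 0.0324), against 0 otherwise. Between wild types 0 were called in the fit of all 16 libraries, against 4, up to 6 with the marker scores, and 3 to 4 without 1 library, Chst2 being lost without P2WT replicate 10 or 7 or P2H2WT replicate 13 or 16. Called relations between members numbered 7 to 19 without 1 library, against 17.

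Over all genes, DESeq2 called 13 higher and 10 lower in the P2 line (edgeR 6 and 0), 33 and 9 in the P2H2 line (edgeR 10 and 0) and 349 and 70 between wild types (edgeR 148 and 18). At 4 libraries a group, the intervals of Selplg, Cd44, Fut7 and Fut4 were wide, and differences inside them are not excluded. These intervals are not limits of detection: Selp at 2.57-fold in the P2H2 line was not called by edgeR after adjustment over all genes.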
